A study of Mus musculus with 11 samples.

Results

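A set of 9 genes made by neutrophils were followed across 11 samples of inflamed mouse back skin: S100a8, S100a9, Lcn2, Csf3r, Retnlg, Clec4d, Clec4e, Trem1 and Irg1. They were taken by symbol from a list of 9 names, and 9 of 9 were found among the 24411 genes in the files. The question put to them was whether S100a8, S100a9 and Lcn2, which keratinocytes can also make, move from sample to sample with the other 6 members or with the stress keratins Krt6a and Krt16. The other 6 are called neutrophil-only below because keratinocytes are not their usual source, but the name is only a label. Monocytes and macrophages can make Clec4d, Clec4e, Trem1 and Irg1 too. Csf3r was not shown to be free of that source, and 15 macrophage and monocyte markers had a median r of 0.81 with it.

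The recipients were mice of the strain Tg(act-EGFP)Y01Osb, aged 16 to 18 in a unit the labels do not give, and every one had been irradiated with 10 Gy. Femoral bone marrow cells of Pdgfra-Cre;tdTomato donors, sorted as tdTomato-negative (7 samples) or tdTomato-positive (4 samples), were injected into the tail vein. After 6 weeks of recovery, MC903, a vitamin D analogue used to set off an atopic dermatitis-like inflammation, was put on the back skin 6 times, and skin was taken on day 14. All 11 samples therefore share the irradiation, the transplant and the MC903, no untreated skin was analysed here, and tdTomato marks any cell whose lineage once expressed Pdgfra-Cre, not 1 cell type. Whether each sample is a separate mouse is not stated, and the p-values then reflect only sample-to-sample spread, which may be technical.

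Neutrophils are short-lived white cells that leave the blood and enter inflamed skin. S100a8 and S100a9 encode the 2 chains of calprotectin, a calcium- and zinc-binding protein that fills neutrophil cytosol, and Lcn2 encodes lipocalin 2, which captures bacterial iron carriers. Stressed keratinocytes also make all 3 proteins, so in whole skin their RNA can come from either cell type. Krt6a and Krt16 are keratins that epidermal cells switch on after wounding and in inflamed, overgrowing epidermis.

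The 250 bases upstream of the start of 4 members are shown. These are the 3 genes of both cell types and Clec4e, whose window held 3 matches to the motifs below, the most of the 9 members. They are RefSeq sequence of build GRCm38.p6, read 5′ to 3′ along the gene, and capitals mark matches on either strand to 3 motifs of myeloid and inflammatory factors: TTGCNNAA (C/EBP), GAGGAA (ETS and PU.1) and TTCNNNGAA (STAT).
S100a8, chr3:90668821-90669070, plus strand: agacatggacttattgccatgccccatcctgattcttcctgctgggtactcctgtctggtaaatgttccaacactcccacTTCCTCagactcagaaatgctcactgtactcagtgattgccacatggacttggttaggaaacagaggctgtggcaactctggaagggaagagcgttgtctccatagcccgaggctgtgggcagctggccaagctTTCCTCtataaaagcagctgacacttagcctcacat
S100a9, chr3:90695722-90695971, minus strand: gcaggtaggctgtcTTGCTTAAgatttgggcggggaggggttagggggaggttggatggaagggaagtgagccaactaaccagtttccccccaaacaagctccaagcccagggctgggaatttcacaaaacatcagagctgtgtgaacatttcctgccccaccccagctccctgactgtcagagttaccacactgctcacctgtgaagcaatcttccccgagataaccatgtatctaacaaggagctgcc
Lcn2, chr2:32387740-32387989, minus strand: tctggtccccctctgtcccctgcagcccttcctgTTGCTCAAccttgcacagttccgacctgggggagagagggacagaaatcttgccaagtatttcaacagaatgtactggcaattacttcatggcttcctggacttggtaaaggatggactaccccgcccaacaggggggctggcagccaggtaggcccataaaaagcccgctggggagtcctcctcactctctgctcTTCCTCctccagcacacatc
Clec4e, chr6:123289872-123290121, minus strand: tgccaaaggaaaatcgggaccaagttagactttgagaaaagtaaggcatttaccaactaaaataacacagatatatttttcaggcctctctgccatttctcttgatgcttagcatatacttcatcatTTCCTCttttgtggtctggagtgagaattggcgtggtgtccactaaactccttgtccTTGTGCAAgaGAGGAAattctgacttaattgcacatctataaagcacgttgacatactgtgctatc
Upstream of S100a8 stood 2 GAGGAA matches, the nearer 36 to 31 bases before the start, while S100a9 had 1 TTGCNNAA match and Lcn2 had 1 match to each of these 2 motifs. Among the 9 member windows, 4 held TTGCNNAA (Clec4e, Lcn2, Retnlg and S100a9), 7 held GAGGAA (S100a9 and Retnlg did not) and 1 held TTCNNNGAA (Trem1, where it ends beside the GAGGAA match). The shares of all 32851 windows of this length with a match were 9.56%, 23.3% and 7.02% in that order. A match describes these letters only. S100a8 (chr3:90669071-90670034) and S100a9 (chr3:90692630-90695721) lie close together, as do Clec4d (chr6:123262107-123275268) and Clec4e (chr6:123281789-123289871). Irg1 appears in RefSeq as Acod1.

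The libraries held between 7190752 and 9749842 expected counts, and no pair of libraries agreed within sampling noise. Positive replicate 1 was the highest of the 11 libraries for 8 of 9 members, and positive replicate 3 the lowest for 8 of 9. The summed hair follicle markers, a measure of the hair cycle, ran from 549 to 14706 CPM in the positive and from 379 to 48791 CPM in the negative samples. All 16 of them had a log2 fold change below 0 (positive minus negative), with 0 called, and their median r was -0.03 with S100a8 and -0.63 with Krt6a. CPM are read counts scaled to the TMM-adjusted total of each library, and they are not corrected for gene length.

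Per length, S100a8 was the most abundant member, with a median of 570 TPM, the deposited unit that corrects for gene length and depth, followed by S100a9 at 337 TPM and Lcn2 at 33.6 TPM. The neutrophil-only members lay far lower, their median TPM running from 1.71 (Trem1) to 5.76 (Csf3r). Krt6a and Krt16 had medians of 2745 and 2622 TPM. The medians of Irg1 (5.6 TPM), Clec4d (5.43 TPM), Retnlg (3.86 TPM) and Clec4e (1.72 TPM) lay between those of Trem1 and Csf3r. Whether the levels of these neutrophil-only genes differ beyond their spread over samples was not tested. At this depth Retnlg rested on 2 to 58 counts a library and Trem1 on 6 to 447, whereas S100a8 had 181 to 1346.

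Calprotectin varied widely over the skin samples. S100a8 measured 167, 118, 18.6 and 71.3 CPM in positive replicates 1 to 4, and between 27.6 and 188 CPM with a median of 63.7 CPM in the 7 negative samples. The positive replicate 3 value lies below every negative sample and the other 3 lie inside the negative range, so the groups overlap. S100a9 measured 229, 108, 17.2 and 67.1 CPM in the positive samples and 17.4 to 192 CPM, median 64.4 CPM, in the negative ones. The same libraries were at the ends for both genes: positive replicates 1 and 2 and negative replicate 2 were high, and positive replicate 3 and negative replicate 3 were low. From lowest to highest library the range was 10.1-fold for S100a8 and 13.4-fold for S100a9.

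Lcn2 was flatter apart from the 2 low libraries. It measured 21.8, 21.5, 2.67 and 16.2 CPM in the positive samples, and 3.23 to 17 CPM with a median of 13.4 CPM in the negative ones. The positive replicate 3 and negative replicate 3 values stand below 4 CPM, at 26 and 24 counts, and the other 9 lie between 11.6 and 21.8 CPM.

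Csf3r, the receptor for granulocyte colony-stimulating factor, which keeps neutrophils alive, measured 43.7, 26.6, 6.88 and 12.4 CPM in the positive and 8.76 to 19.1 CPM (median 13.1 CPM) in the negative samples. Positive replicates 1 and 2 stand above every negative sample and positive replicate 3 below every one. Retnlg, a secreted resistin-like protein of neutrophils, measured 7.23, 2.94, 0.205 and 2.3 CPM in the positive and 0.257 to 1.53 CPM (median 0.931 CPM) in the negative samples. Its 3 higher positive samples exceeded all 7 negative ones, on 17 to 58 counts against at most 11.

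The pattern-recognition and activation genes had the widest ranges. Clec4d, a C-type lectin that binds fungal and mycobacterial glycolipids, measured 65.6, 10.5, 1.54 and 5.27 CPM in the positive samples and 1.35 to 16.2 CPM (median 3.64 CPM) in the negative ones. Its partner Clec4e, also called Mincle, measured 31.5, 5.88, 0.822 and 3.51 CPM against 1.62 to 6.97 CPM (median 2.45 CPM). For both lectins positive replicate 1 stands above all other libraries by itself. Trem1, a receptor that amplifies inflammatory signals in myeloid cells, measured 55.7, 10.1, 0.616 and 4.32 CPM against 0.901 to 12.3 CPM (median 1.91 CPM). Irg1, the enzyme that makes itaconate in activated myeloid cells, measured 119, 19, 0.822 and 9.45 CPM against 2.7 to 41.4 CPM (median 4.45 CPM). The highest and lowest libraries differed 90.4-fold for Trem1 and 145-fold for Irg1, and for both genes they were positive replicates 1 and 3.

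**Figure D1:**
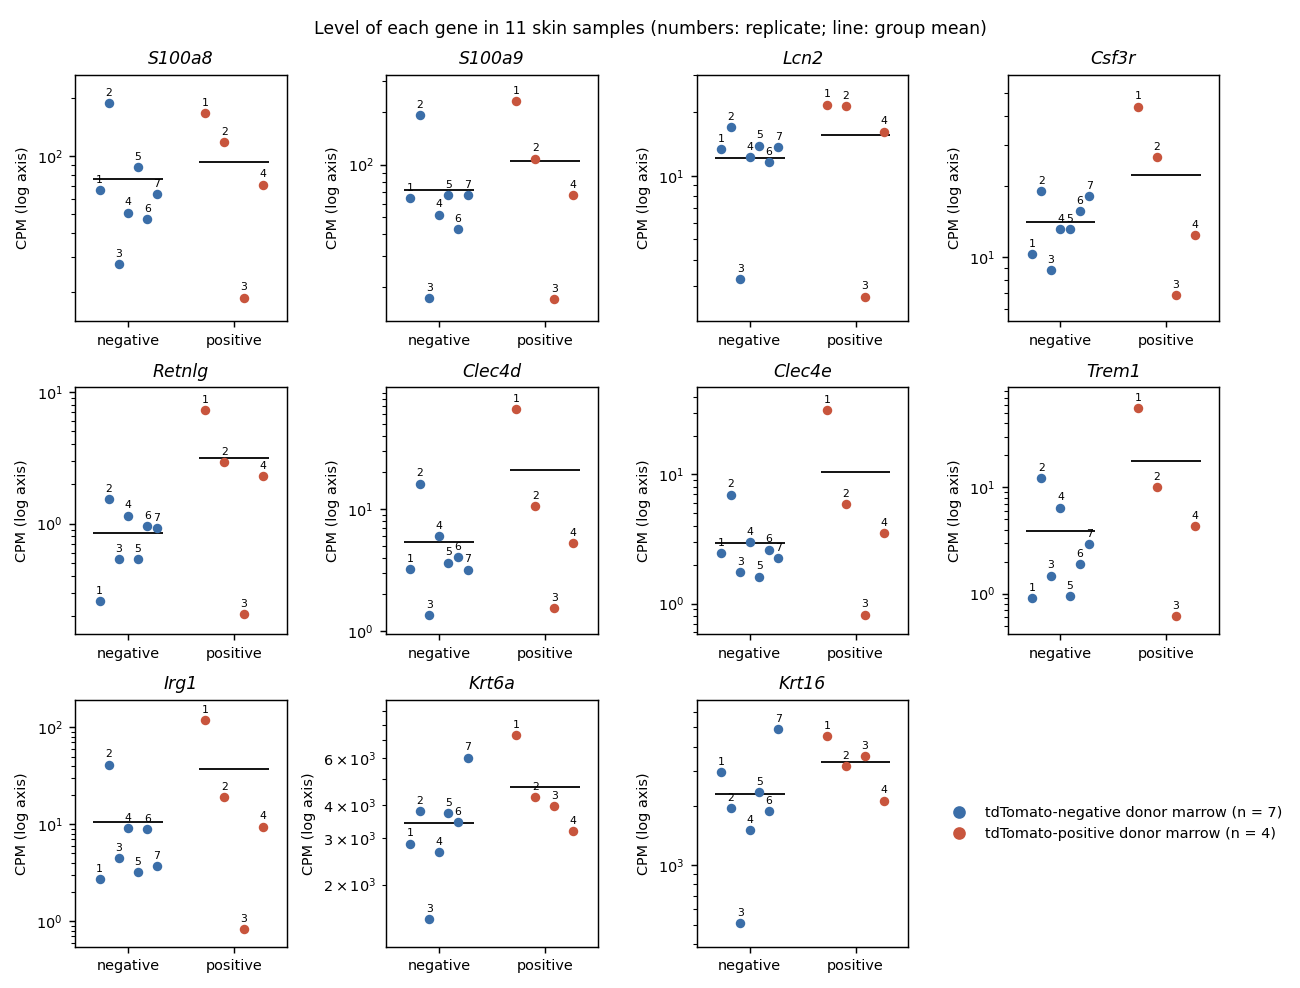
Level of the 9 members and 2 stress keratins in each sample, in CPM on log axes, by donor group, where numbers are replicates and lines the group means. Positive replicate 1 is highest and positive replicate 3 lowest for most members, while both keratins are lowest in negative replicate 3.

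The stress keratins ordered the libraries differently at the low end. Krt6a lay between 3177 and 7318 CPM in the positive and between 1486 and 6018 CPM in the negative samples, and Krt16 between 2127 and 4514 CPM and between 508 and 4907 CPM. Positive replicate 3, the lowest library for 8 members, was the fourth highest of 11 for Krt6a and the third highest for Krt16. Negative replicate 3, low in calprotectin and Lcn2, was the lowest for both keratins. Expected counts of Krt6a and Krt16 were up to 0.47 away from a whole number, and those of the 9 members were whole. RSEM gives fractions where it divides reads between genes, so the levels of both keratins carry some uncertainty. Which genes shared reads with them, and how many reads, was not tested.

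S100a8, S100a9 and Lcn2 moved as 1 group. Over the 11 samples the Pearson r of log2 CPM was 0.98 for S100a8 with S100a9, 0.89 for S100a8 with Lcn2 and 0.90 for S100a9 with Lcn2. Spearman's rho was 0.98, 0.95 and 0.98. Each had a permutation p of at most 1.10e-04 and, over the 31 further pairs among these genes, a Benjamini-Hochberg adjusted p of at most 3.10e-04. Without the 2 farthest samples, negative replicate 3 and positive replicate 3, r was 0.97, 0.83 and 0.84. The TPM ratio of S100a8 to S100a9 stayed between 1.27 and 2.72 over the 11 samples, with a median of 1.83.

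Over all 11 samples these 3 genes had higher correlations with the neutrophil-only members than with the keratins. S100a8 had r from 0.71 (Retnlg) to 0.85 (Clec4d) with the neutrophil-only genes, against 0.52 with Krt6a and 0.35 with Krt16. S100a9 had r from 0.75 (Retnlg) to 0.90 (Clec4d), against 0.63 and 0.47. Lcn2 had r from 0.64 (Trem1) to 0.78 (Csf3r), against 0.54 and 0.45. The difference between these coefficients was not itself tested.

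In a two-sided permutation test of 100000 pairings, 18 of 18 relations with neutrophil-only genes and 1 of 6 with the keratins had an adjusted p under 0.05 over the family of 24. For S100a8 with Csf3r, r was 0.82 (p = 0.00225, adjusted p = 0.00705) and rho 0.72 (p = 0.0163, adjusted p = 0.0302). For S100a9 with Clec4d, r was 0.90 (p = 8.00e-05, adjusted p = 0.00192) and rho 0.79 (p = 0.0053, adjusted p = 0.0244). The weakest of the 18 was Lcn2 with Trem1, at r 0.64 (p = 0.0374, adjusted p = 0.0472) and rho 0.76 (p = 0.00822, adjusted p = 0.0247).

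The 1 keratin relation was S100a9 with Krt6a, at r 0.63 (p = 0.0361, adjusted p = 0.0472) and rho 0.55 (p = 0.0891, adjusted p = 0.107). It rests on negative replicate 3 and positive replicate 1, without which r was 0.10, and without positive replicate 3 alone it was 0.79. S100a8 with Krt6a had p = 0.0962 and adjusted p = 0.113, and Lcn2 with Krt6a p = 0.099 and adjusted p = 0.113 in the same permutation test. The Krt16 relations had permutation p = 0.292 (S100a8), 0.144 (S100a9) and 0.168 (Lcn2), with adjusted p = 0.292, 0.158 and 0.175. With the 2 samples farthest from the median of the neutrophil-only gene or keratin left out, the 6 keratin r lay between -0.10 and 0.15, and the 18 neutrophil-only r between 0.41 (Lcn2 with Irg1) and 0.88 (Lcn2 with Clec4d). Different samples are left out for different genes, and positive replicate 3 stayed in for both keratins, so these 2 ranges are not a like comparison.

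**Figure D2:**
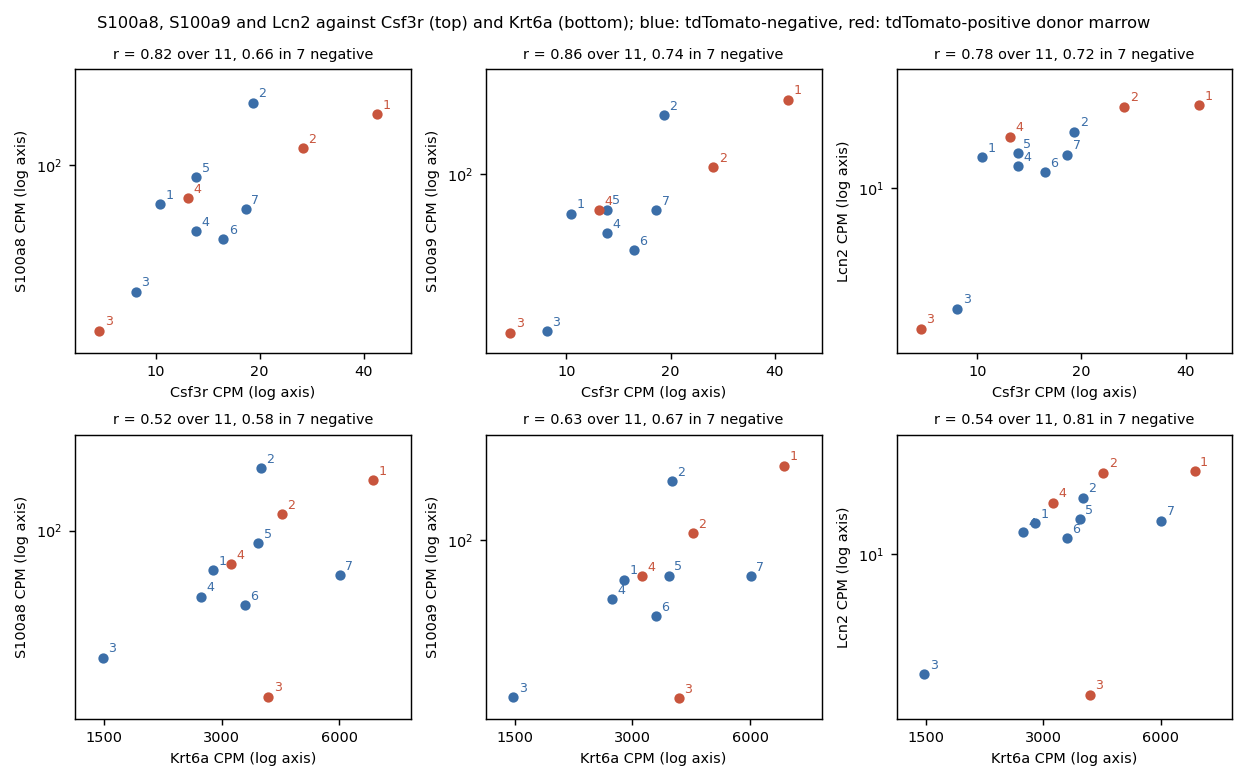
CPM of S100a8, S100a9 and Lcn2 in each of the 11 samples against Csf3r (top row) and Krt6a (bottom row), log axes, points numbered by replicate and coloured by donor group. Positive replicate 3 lies at the low end against Csf3r and falls below the other points against Krt6a.

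That order depended on 1 library. In 10 of the 11 sets that leave out a single library, each of the 3 genes had a higher r with all 6 neutrophil-only members than with both keratins. Without positive replicate 3, 11 of 18 neutrophil-only and 5 of 6 keratin relations passed. Lcn2 then had r 0.81 with Krt6a and 0.85 with Krt16, above all 6 of its neutrophil-only values, whose median was 0.58. S100a8 kept 4 and S100a9 kept 3 neutrophil-only genes above both keratins, with r of 0.71 and 0.79 with Krt6a. In positive replicate 3 itself, the summed epidermal keratinocyte markers were 30643 CPM (10265 to 31944 CPM over all samples), the macrophage markers 922 CPM (726 to 2093 CPM) and the hair follicle markers 973 CPM. The part of these in the low neutrophil gene values was not tested.

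Within the 7 negative samples the picture also split by gene. Lcn2 had r 0.81 with Krt6a (exact permutation p = 0.0355, adjusted p = 0.215) and 0.83 with Krt16 (exact p = 0.0506, adjusted p = 0.215), with rho of 0.79 and 0.64. With the neutrophil-only genes its r ran from 0.28 (Irg1) to 0.73 (Clec4d). S100a8 had r 0.58 and 0.51 with the keratins against 0.38 to 0.85, and S100a9 0.67 and 0.62 against 0.44 to 0.89. None of the 24 relations passed adjustment within these 7 samples, the lowest adjusted p by the exact permutation test being 0.215. With 4 positive samples no coefficient was computed in that group. As deviations from the 2 group means, r for S100a8, S100a9 and Lcn2 had medians of 0.82, 0.84 and 0.73 with the neutrophil-only genes and was 0.54, 0.64 and 0.56 with Krt6a. On that scale 13 of 18 neutrophil-only relations passed, and Lcn2 passed with Csf3r alone of its 6.

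**Figure D3:**
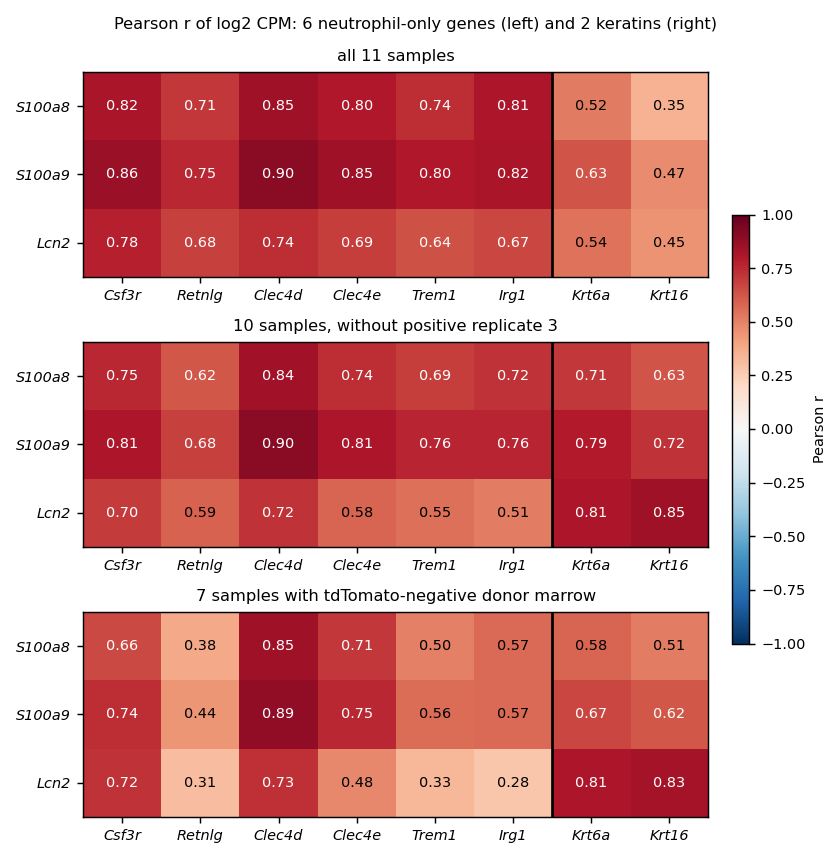
Pearson r of log2 CPM of S100a8, S100a9 and Lcn2 with 6 neutrophil-only genes (left of the line) and 2 keratins (right), in all 11 samples, in the 10 without positive replicate 3, and in the 7 negative samples. Lcn2 has its highest values with Krt6a and Krt16 in the 2 lower panels and with Csf3r in the upper one.

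The neutrophil-only members were tightly tied to each other. Clec4d and Clec4e had r 0.97, Clec4e and Irg1 0.96, Clec4e and Trem1 0.95 and Retnlg and Trem1 0.94, while Csf3r had r from 0.87 (Irg1) to 0.90 (Clec4d and Clec4e) with the other 5. The permutation p of these 6-gene pairs was at most 6.80e-04, and the adjusted p at most 0.00111. Within the 7 negative samples Clec4e with Irg1 still had r 0.92 and Csf3r with Irg1 0.58. Irg1 had the lowest r with the keratins, 0.40 with Krt6a and 0.10 with Krt16, and Csf3r the highest with Krt6a, 0.70.

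A model with Csf3r and Krt6a together asked which of the 2 each gene followed when the other was held. Per log2 unit of Csf3r, at fixed Krt6a, S100a8 was higher by 1.24 ± 0.41 (SE) log2 units, S100a9 by 1.35 ± 0.43 and Lcn2 by 0.96 ± 0.39. Their edgeR quasi-likelihood adjusted p over all genes were 0.321, 0.311 and 0.403, so none was called, nor was any of the 14586 genes tested (0%). At an unadjusted p under 0.05 all 8 members other than Csf3r had a slope above 0, against 5.29% of all genes. The neutrophil-only slopes were steeper than 1 for 1, from 2.08 ± 0.46 (Retnlg) to 3.45 ± 0.57 (Irg1), and Krt16 had a slope of -0.46 ± 0.18.

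Per log2 unit of Krt6a, at fixed Csf3r, the slopes of S100a8, S100a9 and Lcn2 were -0.22 ± 0.49, 0.01 ± 0.54 and -0.11 ± 0.49 (edgeR adjusted p = 0.84, 0.997 and 0.924). Their standard errors admit slopes of either sign. In this test 5 genes were called (0.0343%), and all 5 rose with Krt6a: Krt6b, Krt14 and Krt16, the desmosomal cadherin Dsg1b, and Myoz2, a muscle gene. Krt16 had a slope of 1.72 ± 0.24 (edgeR adjusted p = 0.0442). Whether the called keratins share reads with Krt6a was not tested. The 5 calls fell outside the member list, and the count of calls ran from 0 to 37 with single libraries left out. Among members, 1 of 8 (Irg1, -1.64 ± 0.72) had an unadjusted p under 0.05, against 18.4% of all genes in either direction. Without positive replicate 3 the Csf3r slopes of S100a8, S100a9 and Lcn2 were 0.67, 0.81 and 0.13 (edgeR adjusted p = 0.91, 0.894 and 0.994), and their Krt6a slopes were 0.36, 0.58 and 0.74. Those of Irg1 were then 3.71 on Csf3r and -1.90 on Krt6a.

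Ratios within a sample are given as a description. The TPM ratio of S100a8 to Csf3r varied 3.72-fold over the samples and that to Krt6a 10.7-fold. For Lcn2 the ranges were 3.55-fold and 7.59-fold, and for S100a9 5.1-fold and 11.8-fold. The lowest ratio of each of the 3 genes to Krt6a was in positive replicate 3, at 0.0535, 0.0289 and 0.00217 for S100a8, S100a9 and Lcn2, and in negative replicate 3 it was 0.211, 0.0775 and 0.00698. Without positive replicate 3 the order of the ranges turned for S100a9 (5.1-fold to Csf3r, 4.67-fold to Krt6a) and Lcn2 (3.55-fold and 2.36-fold), and S100a8 had 3.18-fold and 4.87-fold.

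Between the donor groups, no member was called after adjustment over all tested genes. The mean CPM of S100a8 was 93.6 ± 63.5 (SD, n = 4) with tdTomato-positive and 76 ± 52.7 (SD, n = 7) with tdTomato-negative marrow, a log2 fold change of 0.30 ± 0.55 (SE). S100a9 had 105 ± 90.6 against 71.8 ± 55.7 CPM (0.55 ± 0.63) and Lcn2 15.5 ± 8.95 against 12.2 ± 4.29 CPM (0.35 ± 0.47). Trem1 had the largest member difference, 17.7 ± 25.6 against 3.84 ± 4.18 CPM (2.20 ± 0.92), and Retnlg 3.17 ± 2.95 against 0.843 ± 0.432 CPM (1.87 ± 0.63). The log2 fold changes of Clec4d, Clec4e, Irg1 and Csf3r were 1.95 ± 0.82, 1.82 ± 0.72, 1.82 ± 0.98 and 0.67 ± 0.40.

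The edgeR quasi-likelihood adjusted p of the 9 members lay between 0.248 (Retnlg) and 0.8 (S100a8), and 0 of 14588 genes were called (0%). At an adjusted p under 0.05 DESeq2 called 68 genes and limma-voom with sample quality weights 2093, with no member among either (the adjusted p of Retnlg was NA in DESeq2). The counts at an unadjusted p under 0.05 were 2448 for edgeR, 2568 for DESeq2 and 5003 for limma-voom. Of the 9 members, 4 (Retnlg, Clec4d, Clec4e and Trem1) had an unadjusted p under 0.05, all higher in the positive samples, against 7.05% of all genes. All 9 had a mean difference above 0, as had 7093 of the 14588 genes, with a median of 1.85 for the neutrophil-only members, 0.35 for S100a8, S100a9 and Lcn2, 0.50 for Krt6a and Krt16 and -0.007 for all genes. The two-sided exact permutation p on log2 CPM ran from 0.115 (Retnlg) to 0.891 (Lcn2), where 4 against 7 samples can reach 0.00303. The groups overlapped for 9 of 9 members, and 0.61% of all genes had every positive sample above every negative one.

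The mean differences came mostly from positive replicate 1. Without it the log2 fold change was -0.14 for S100a8, -0.17 for S100a9 and -0.11 for Irg1, and 0.09, 0.19, 0.37, 0.12 and 0.13 for Clec4d, Clec4e, Trem1, Csf3r and Lcn2. Retnlg kept 1.05. The summed macrophage and monocyte markers were also highest in positive replicate 1, at 2093 CPM, and their part in the member values was not tested. In whole skin, a different number of the cells that make these RNAs and a different amount of RNA per cell cannot be told apart.

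**Figure D4:**
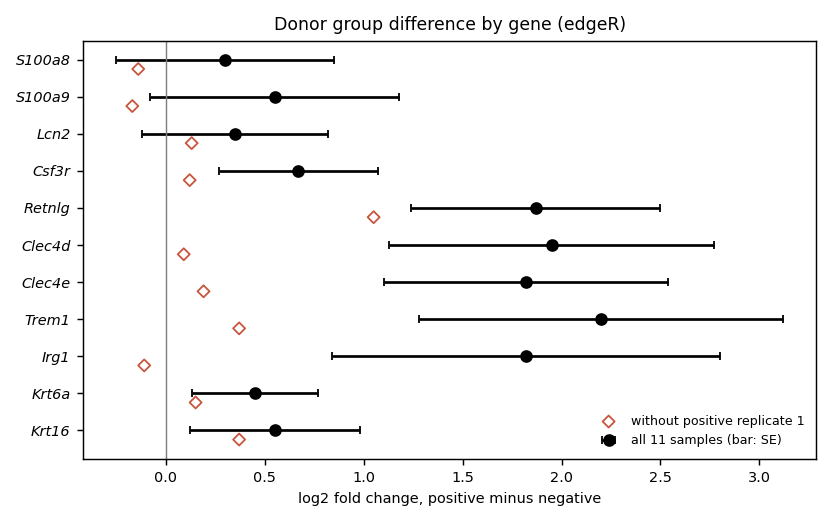
Log2 fold change, positive minus negative donor marrow, of the 9 members and 2 keratins from edgeR, with all 11 samples (black, bars are SE) and without positive replicate 1 (open diamonds). The diamonds of S100a8, S100a9 and Irg1 lie below 0 and that of Retnlg stays near 1.

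Most other granule genes were at low counts. Of 13 granule genes listed, 12 were matched, and 4 passed the filter on low counts: Mmp8, Mmp9, Padi4 and Cd177. Elane, the neutrophil elastase of marrow precursors, had 0 counts in all 11 samples, where 0 counts allow up to 3 in each. Mpo reached 5 counts, Ctsg 11 and Camp 12 in their highest libraries, and Prtn3 had 1 to 12 counts a library. All of these fell below the filter. Mmp9, gelatinase B of late granules, ranged from 2.47 to 68.7 CPM, lowest in positive replicate 3 and highest in positive replicate 1 like most members. Cd177, a surface protein of neutrophils, had r 0.93 with Lcn2 on 0 to 30 counts. Padi4, which citrullinates histones, went the other way: it was highest in negative replicate 3 at 108 CPM, the library with the most hair follicle RNA, and had r -0.15 with S100a8. Of the 4 tested, 3 had a log2 fold change above 0 (median 0.76), and 0 were called. The summed level of all 12 ran from 26.1 to 105 CPM in the positive and from 42.1 to 119 CPM in the negative samples. Its highest value, 119 CPM in negative replicate 3, was mostly Padi4 (108 CPM), so the sum is no measure of granule RNA alone.

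Of 10 surface receptor genes of neutrophils, 7 passed the filter and all 7 had a mean difference above 0 (median 0.67), with 0 called. At an unadjusted p under 0.05, 6 of 7 had a slope above 0 on Csf3r at fixed Krt6a, against 5.29% of all genes. Itgam, the integrin chain CD11b that neutrophils share with macrophages, ranged from 27.5 to 120 CPM and had r 0.66 with S100a8, 0.93 with Csf3r and 0.84 with Krt6a. The list's median r was 0.57 with S100a8, 0.80 with Csf3r and 0.70 with Krt6a. Cxcr2, the receptor for the neutrophil chemokines, ranged from 3.91 to 33.9 CPM and had a log2 fold change of 0.72 ± 0.40 (edgeR adjusted p = 0.37).

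Of 16 listed signals that draw in neutrophils, 7 passed the filter and all 7 had a mean difference above 0 (median 0.86). All 7 had a slope above 0 on Csf3r at an unadjusted p under 0.05, against 5.29% of all genes, with 0 called in either test. Cxcl2, a chemokine for neutrophils, ran from 2.77 CPM in positive replicate 3 to 282 CPM in positive replicate 1, with r 0.81 with S100a8 and 0.40 with Krt6a. Il1b, an inflammatory cytokine of myeloid cells, ran from 2.57 to 266 CPM between the same 2 libraries, with r 0.82 and 0.44. Il17a, a T cell cytokine that acts upstream of neutrophil recruitment, had 1 count in all 11 samples together, and Il17c and Il17f had 6 and 2.

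Of 14 activated keratinocyte genes, 12 passed the filter, 7 had a mean difference above 0 (median 0.30) and none was called. At an unadjusted p under 0.05, 5 of the 12 had a slope above 0 and 1 below 0 on Krt6a at fixed Csf3r, where 8.63% of all genes had one above 0, and 0 had a slope above 0 on Csf3r. Krt6b had r 0.96 with Krt6a and 0.40 with S100a8, Sprr1b, a cornified envelope gene, 0.87 and 0.34, and the keratin Krt17 -0.53 and -0.17. The list's median r was 0.65 with Krt6a and 0.36 with S100a8. The 6 epidermal markers had a median r of 0.33 with Krt6a and 0.09 with S100a8, and among them Krt14 had 0.97 and 0.39, and Krt1 0.52 and -0.13.

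Of the 10 tested genes of the S100 family list, 4 had a mean difference above 0, the median was -0.33 and the median r with S100a8 0.01. Their median r with Krt6a was -0.54. S100a11 had r 0.36 with S100a8 and 0.86 with Krt6a, S100a6 had -0.05 and -0.55, and S100a3 -0.04 and -0.64. Among 4 tested receptors of calprotectin and lipocalin 2, Tlr4, which binds calprotectin, had r 0.86 with S100a8 and 0.93 with Csf3r, Cd36 had 0.09 and 0.05, and Slc22a17, a lipocalin 2 receptor, -0.60 and -0.72. The list medians were 0.05 and -0.03, and 2 of 4 had a mean difference above 0 (median 0.17, 0 called). Of 15 macrophage and monocyte markers all 15 had a mean difference above 0 (median 0.57, 0 called). An unadjusted edgeR p under 0.05 was found for 8 of the 15, all higher in the positive samples, against 7.05% of all genes. The summed level of all 15 was 922 to 2093 CPM in the positive and 726 to 1248 CPM in the negative samples. At an unadjusted p under 0.05, 10 of 15 had a slope above 0 on Csf3r at fixed Krt6a, against 5.29% of all genes. The median r of these markers was 0.81 with Csf3r, 0.71 with Krt6a and 0.56 with S100a8. None of these markers was at 0 in all samples, and their part in the member values was not tested. The 5 red cell markers had a median r of 0.35 with S100a8 and a median difference of 0.46, with 3 of 5 above 0 and 0 called.

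Ranked by r over the 11 samples among 14587 other genes, S100a9 came at place 1 for S100a8, Lcn2 at 10, Clec4d at 43, Csf3r at 84, Irg1 at 106, Clec4e at 122, Trem1 at 290 and Retnlg at 429. Krt6a came at 1609 and Krt16 at 3077. The order was closer for Lcn2, where the neutrophil-only genes came from place 277 (Csf3r) to 993 (Trem1), Krt6a at 1667 and Krt16 at 2367. After S100a9, the genes with the highest r with S100a8 were Chil3 (0.96), which encodes the chitinase-like protein Ym1 of myeloid cells, Mpp5 (0.95), Cfap97 (0.92) and Rsu1 (0.91). For Lcn2 they were Trove2 (0.95), Rmrp (0.94), Marcks, Cd177 and Ube2v2 (each 0.93). For Csf3r they were Msn (0.97), Adam9 and Sp140 (each 0.96), Slfn1 and Trim12c (each 0.95). Mpp5 varied from 36 to 57.4 CPM only, and Chil3 from 0.674 to 36 CPM. These ranks describe 11 shared libraries.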

How the data were processed

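Back skin RNA depleted of ribosomal RNA gave 11 libraries, per the labels' protocols. Trim Galore, bcl2fastq, RSEM and the build GRCm38 come from the submitters' processing notes. Tool versions, the aligner and the strandedness used in counting were not given in the sources used here. Per the file headers, the authors deposited RSEM expected counts, estimated reads per gene without normalization, and TPM, which are scaled by effective length. The FPKM column was not used.

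Expected counts were rounded to whole numbers. Of 24411 genes, 14588 passed filterByExpr (minimum count 10, minimum total 15), and 9 of 9 members did. Groups were compared with edgeR 4.0.16 (glmQLFit in legacy mode, glmQLFTest, TMM, R 4.3.3), with Benjamini-Hochberg adjusted p under 0.05 over all tested genes. The slopes on log2 CPM (prior count 2) of Csf3r and Krt6a were tested in 1 edgeR model over 14586 genes. Correlations used scipy 1.17.1 with 100000 pairings, or all 5040 in the 7 negative samples. DESeq2 1.42.0 and limma 3.58.1 served as alternatives, with other scalings, no filter, a TPM scale (pseudocount 1), the hair follicle score and donor group as covariates, other reference genes and single libraries left out. The scripts were tested on simulated data.

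The named genes are the 9 members, Krt6a, Krt16, the 5 genes with the highest r with S100a8, Lcn2 and Csf3r (predicted genes left out) and, per list, among the 3 with the highest mean TPM. Elane, Mpo, Camp, Prtn3, Ctsg, Cxcr2, the Il17 genes, Dsg1b and Myoz2 were named after their values were seen. The members and lists were chosen with earlier results of these data known. Ly6g, Il36a and Il36g were not analysed here. Totals set the precision, and the floor of 3 counts covers counting error only (the libraries carry no stated molecular identifiers, and PCR copies are not separate molecules).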

Additional observations from a re-analysis of the deposited data

Results flagged for a closer look

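In 9 of 22 sets of CPM values (11 genes in 2 groups), 1 sample stood apart from the rest of its group by Dixon's criterion. Chance marks about 1 in 20 sets where values follow a normal distribution. That was not tested for these CPM values, so their chance rate is not known. The genes and libraries are shared between sets, so these are not 9 separate events. Negative replicate 2 was the high sample for 5 genes: S100a8 at 188 CPM (next highest 88.1 CPM), S100a9 at 192 CPM (67.3 CPM), Clec4d at 16.2 CPM (5.98 CPM), Clec4e at 6.97 CPM (2.99 CPM) and Irg1 at 41.4 CPM (9.09 CPM). Positive replicate 1 stood apart for Clec4d at 65.6 CPM (10.5 CPM next), Clec4e at 31.5 CPM (5.88 CPM) and Irg1 at 119 CPM (19 CPM). Negative replicate 3 was the low sample for Lcn2, at 3.23 CPM with the next at 11.6 CPM.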

How the results depend on the processing

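No member was called between the donor groups under any alternative tried. The count of all genes called, 0 in edgeR, was 68 with DESeq2 and 2093 with limma-voom with sample quality weights, and 0 to 3 with single libraries left out (1 without negative replicate 4, 3 without negative replicate 7). The log2 fold changes that turned sign ran from -0.14 to 0.70 (S100a8), -0.17 to 1.02 (S100a9) and -0.11 to 2.77 (Irg1), each below 0 only without positive replicate 1. The count of genes following Csf3r, 0, was 2 with Retnlg in place of Csf3r, 182 with Krt16 in place of Krt6a and 0 to 3 with single libraries left out (3 without positive replicate 2). With Krt16 held in place of Krt6a, the Csf3r slopes of 5 of 8 members were called, against 182 of all 14586 genes. These 5 slopes ran from 1.88 (Retnlg, edgeR adjusted p = 0.0172) to 2.78 (Trem1) among the 4 other than Irg1. The edgeR adjusted p was as low as 0.00648 (Irg1), while S100a8, S100a9 and Lcn2 had adjusted p of 0.0948, 0.0681 and 0.19.

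The count following Krt6a, 5, was 1 with the hair score, 8 with Retnlg, 1854 with Krt16, 3 with donor group and 0 to 37 with single libraries left out: 37 without negative replicate 1, 15 without positive replicate 2, 3 without negative replicates 4 or 5 or positive replicates 1 or 4, 1 without negative replicate 3 and 0 without positive replicate 3. Leaving out positive replicate 1 and negative replicate 2 together, chosen after seeing the data, gave 3. Krt6a slopes turned sign with the hair score (0.20 for S100a8, 0.02 for Lcn2, 0.46 for Clec4d), with Retnlg (0.43 for S100a8, 0.38 for Lcn2, 0.58 for Clec4d, 0.26 for Clec4e) and with Krt16 (0.13 for Lcn2). Over single libraries they ran from -0.91 to 0.36 (S100a8), -0.78 to 0.58 (S100a9), -0.97 to 0.74 (Lcn2) and -0.66 to 0.42 (Clec4d), and without the pair Lcn2 had 0.00. The cause was not tested.

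Of the neutrophil-only relations, 18 in full, 11 to 18 passed with single libraries left out (11 without positive replicate 3, 12 without positive replicate 1), 15 on log2(TPM + 1), 13 as deviations from group means and 9 without the pair. Of the keratin relations, 1 in full, 0 passed on log2(TPM + 1), as deviations from group means and without the pair, 2 after the hair score, and 0 to 5 with single libraries left out: 5 without positive replicate 3, and 0 without negative replicates 1, 3, 4, 5 or 6 or positive replicates 1, 2 or 4. For Lcn2 with Krt16, r ran from -0.07 to 0.85. After the hair score the keratin r of S100a8, S100a9 and Lcn2 were higher than in full. They were 0.65, 0.72 and 0.62 with Krt6a and 0.53, 0.60 and 0.60 with Krt16. The lowest neutrophil-only r were then 0.71, 0.75 and 0.64.

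With the replicate number as a block, 0 genes were called between the groups. The numbers do not pair the samples: the correlations of same-numbered deviations were -0.0417, -0.14, -0.0538 and 0.338, and 0 of 4 positive libraries correlated best with their own number. Depth limits Retnlg, Clec4e and Trem1, with 2, 8 and 6 counts in their lowest libraries.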
